A study of Mus musculus with 5 samples.

Results

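Cell cycle genes were followed in single cells of the mouse pancreas and of pancreatic tumours that arise in genetically engineered mice. The 40 genes came from a list given by name, of 27998 genes in the deposited tables, and each had at least 1 UMI (unique molecular identifier, the count of 1 captured RNA molecule) in the kept cells. By role, 14 were grouped as genes of S phase, when DNA is copied, and 26 as genes of mitosis, when the copies are divided. The mitosis group is not confined to that phase. It holds Ccna2, the cyclin of S and G2, and Hmgb2, which many resting blood cells also make. A cell was called cycling where at least 3 of the 40 genes had a UMI after every cell had been thinned at random to 1000 UMIs. By that rule 410 of 10518 cells were cycling.

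There were 5 libraries, 1 for each group, so no difference could be set against a spread between animals, and no test was made. The normal pancreas came from a mouse of 60 days. The early KIC and late KIC tumours were taken at 40 and 60 days, the late KPfC tumour at 60 days and the late KPC tumour at 6 months. The strain was given as mixed C57BL/6 and FVB for all but the late KPfC mouse, which was C57BL/6, and no mouse was treated. In common usage, KIC mice lose Cdkn2a in pancreatic cells, KPfC mice lose Trp53 there through a floxed allele, and KPC mice carry a mutant Trp53. A Cre driven in the pancreatic lineage makes these changes, and fibroblasts, macrophages and lymphocytes are not its target. Genotype, age, strain, sex-linked RNA, library and depth cannot be told apart here.

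A dividing cell licenses its replication origins with the MCM helicase, raises its nucleotide supply, copies its DNA in S phase and then builds a spindle that pulls the chromosomes apart. Cyclins switch on the cyclin-dependent kinases that drive each step, E2F factors drive many S-phase genes, and late genes are often held by a DREAM or MuvB complex at a CHR element beside CCAAT boxes until G2. In the adult pancreas acinar and islet cells divide rarely, whereas tumour cells, activated fibroblasts, tissue macrophages and activated lymphocytes can divide.

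The members' promoters hold the letters of these elements unevenly. RefSeq's promoter table for GRCm38.p6 held 34 of the 40 genes, 12 of S phase and 22 of mitosis. Ccna2, Kif20a, Tpx2, Ccne2, Aurkb and Mcm4 were not matched. In the 250 bases before the start site, with 1 promoter taken per gene, both strands were searched for CCAAT, for a CHR (TTTGAA or TTCGAA) and for an E2F-like site (TTTCCCGC, TTTGGCGC, TTTCGCGC or TTTGCCGC). A CCAAT was present in 20 of the 22 mitosis promoters (90.9%), in 9 of the 12 S-phase promoters (75%) and in 33.8% of all 32817 promoters. A CHR together with a CCAAT was present in 9 of the 22 mitosis promoters (40.9%), in 2 of the 12 S-phase promoters (16.7%) and in 6.01% of all promoters. An E2F-like site was present in 3 of the 12 S-phase promoters (25.0%), in 1 of the 22 mitosis promoters (4.55%) and in 1.86% of all promoters. These are matches of letters and not measured binding. Shown first are 2 promoters of MCM helicase genes that hold E2F-like letters, then 3 of mitosis genes that hold CHR and CCAAT letters, as examples of the matches counted here, which most members' promoters do not hold. Each is written 5′ to 3′ on the gene's strand, with every match in capitals, and overlapping matches run together. The Cdk1 promoter also holds an E2F-like match.
Mcm5 (chr8:75109259-75109508, + strand): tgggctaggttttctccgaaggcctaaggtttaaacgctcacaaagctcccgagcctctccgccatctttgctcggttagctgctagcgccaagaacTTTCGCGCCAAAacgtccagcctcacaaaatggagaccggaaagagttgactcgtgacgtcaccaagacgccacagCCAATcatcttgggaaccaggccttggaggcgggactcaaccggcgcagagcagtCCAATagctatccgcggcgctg
Mcm6 (chr1:128359706-128359955, - strand): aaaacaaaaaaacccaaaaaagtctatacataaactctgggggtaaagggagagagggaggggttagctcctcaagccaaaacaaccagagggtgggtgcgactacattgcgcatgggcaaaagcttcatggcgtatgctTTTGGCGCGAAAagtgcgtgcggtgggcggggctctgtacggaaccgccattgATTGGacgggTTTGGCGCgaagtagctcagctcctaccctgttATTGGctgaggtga
Top2a (chr11:99024190-99024439, - strand): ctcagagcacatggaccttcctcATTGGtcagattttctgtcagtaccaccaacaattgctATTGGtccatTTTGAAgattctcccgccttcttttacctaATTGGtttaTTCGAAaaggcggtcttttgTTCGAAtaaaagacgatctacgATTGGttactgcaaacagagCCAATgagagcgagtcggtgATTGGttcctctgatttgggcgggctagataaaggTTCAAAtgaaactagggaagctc
Ube2c (chr2:164769679-164769928, + strand): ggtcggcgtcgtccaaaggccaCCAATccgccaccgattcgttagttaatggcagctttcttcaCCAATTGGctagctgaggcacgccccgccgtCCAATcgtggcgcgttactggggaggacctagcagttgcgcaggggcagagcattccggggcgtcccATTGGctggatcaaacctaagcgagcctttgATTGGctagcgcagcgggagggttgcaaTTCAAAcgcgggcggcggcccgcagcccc
Cdk1 (chr10:69352913-69353162, - strand): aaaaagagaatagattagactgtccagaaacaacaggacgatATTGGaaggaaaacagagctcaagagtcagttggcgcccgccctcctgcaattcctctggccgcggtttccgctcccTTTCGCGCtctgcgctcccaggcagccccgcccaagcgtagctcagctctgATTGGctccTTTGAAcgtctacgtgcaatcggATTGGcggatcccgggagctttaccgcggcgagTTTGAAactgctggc

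The libraries differed strongly in depth, which decides how many members a cell can show. The median kept cell had 4224 UMIs in normal pancreas, 1776 in early KIC, 9332 in late KIC, 7592 in late KPfC and 1958 in late KPC. Thinning left out 200 of the 1034 late KPC cells and none elsewhere. Cells were clustered without 175 cell cycle genes, the members among them, and clusters were named "-like" from marker genes. Any cluster that scored best on monocyte markers was counted as macrophage-like, and any that scored best on natural killer cell markers as T-like. Any pair of libraries shared 1 to 17 cell barcodes. Cells with only Xist and cells with only Y-linked RNA numbered 2925 and 1 in early KIC, 0 and 1734 in late KPfC, and 737 and 0 in late KPC. The normal pancreas and late KIC libraries each held many cells of both kinds (658 and 123 cells, then 344 and 272). The labels speak of 1 mouse per group, and how both kinds came to be there was not tested.

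Hmgb2, a DNA-bending chromatin protein that is also made by many resting blood cells, was the member seen in most cycling cells. It had a UMI in 273 of the 410 cycling cells (66.6%) and in 8.51% of the other cells. Top2a, the topoisomerase that untangles copied DNA, was seen in 114 cycling cells (27.8%) and in 0.416% of the others. Ube2c, the ubiquitin-conjugating enzyme of the anaphase-promoting complex, was also seen in 114. Pcna, the sliding clamp of replication, was seen in 111 cycling cells (27.1%) and, unlike Top2a, in 4.18% of the others. Birc5, a subunit of the chromosomal passenger complex, was seen in 107 and Mki67, the surface coat of mitotic chromosomes, in 63. At the other end Plk1, a mitotic kinase, was seen in 6 cycling cells and in 0 other cells. These shares describe the rule, since a cycling cell had to show such genes. Of all cells, 441 had exactly 2 members and stayed just outside the rule, and 127 had exactly 3 and stood just inside it.

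**Figure D1:**
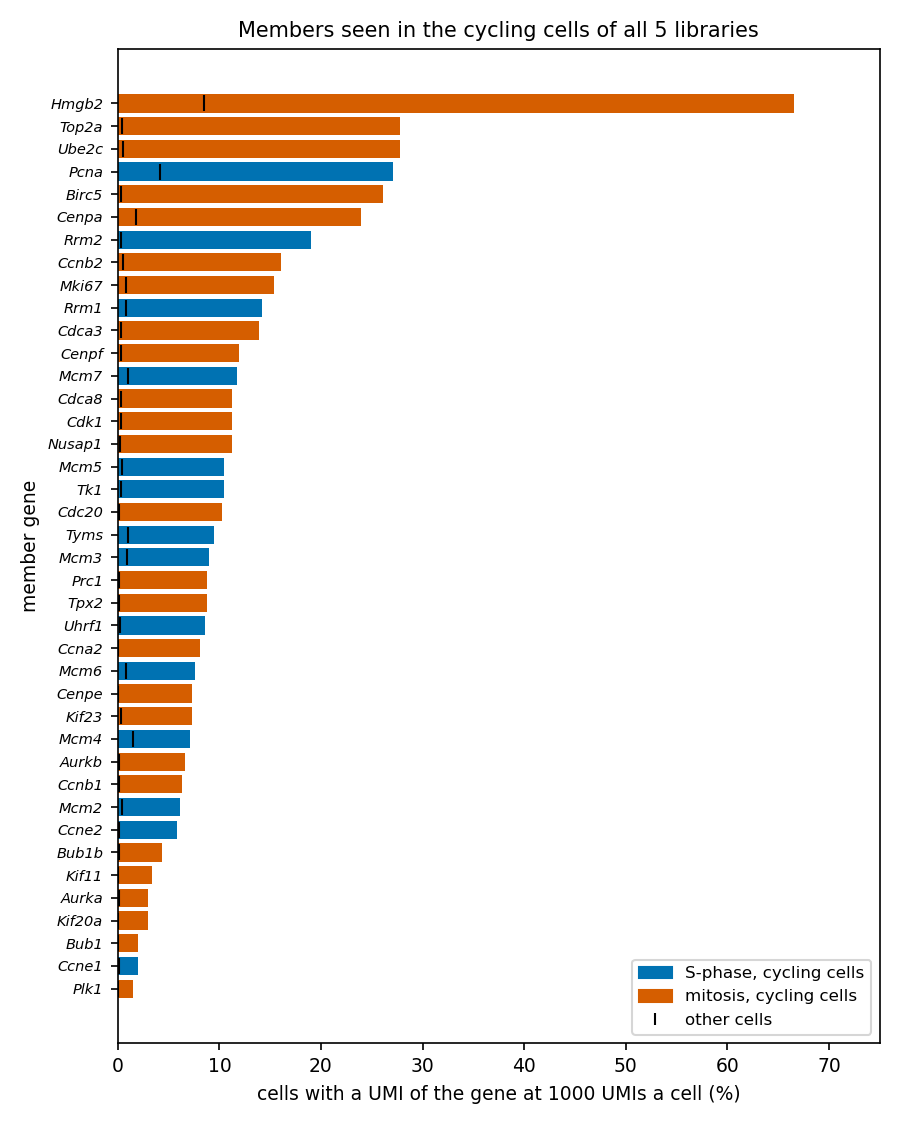
Percent of cells with a UMI of each of the 40 genes (x axis; genes on the y axis) at 1000 UMIs a cell. Bars are the 410 cycling cells, blue for S-phase and orange for mitosis genes, and black ticks are the other cells. Hmgb2 leads at 66.6%, and Plk1 is lowest at 1.46%.

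The normal pancreas had the lowest share of cycling cells and late KPC the highest. Cycling cells made up 19 of 2386 cells in normal pancreas (0.796%, exact 95% binomial interval 0.480 to 1.24), 103 of 3529 in early KIC (2.92%, 2.39 to 3.53), 58 of 836 in late KIC (6.94%, 5.31 to 8.88), 137 of 2933 in late KPfC (4.67%, 3.94 to 5.50) and 93 of 834 in late KPC (11.2%, 9.10 to 13.5). Without thinning the shares were 6.71%, 5.41%, 49.2%, 38.8% and 19.8% in the same order, and late KIC and late KPfC, the deepest libraries, were then the highest. These intervals, and all below, cover counting error only. The make-up of the libraries also differs, so each compartment is given by itself.

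**Figure D2:**
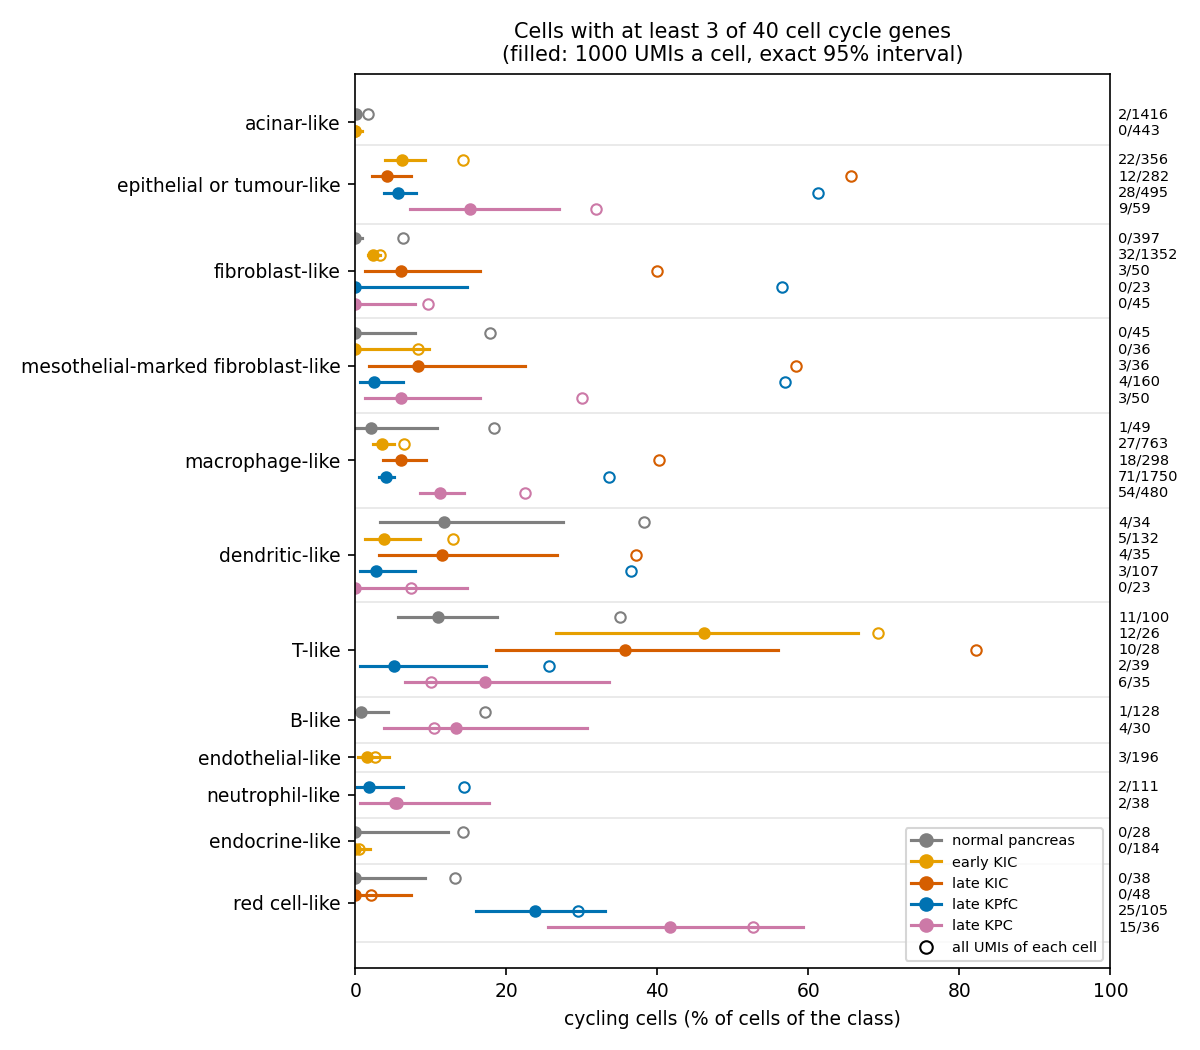
Percent of cells that were cycling (x axis) for each compartment and library (y axis). Filled points are shares at 1000 UMIs a cell with exact 95% intervals, open points are shares with all UMIs, and the fractions at the right are cycling over all thinned cells. In macrophage-like cells late KPC stands at 11.2% and late KPfC at 4.06% after thinning, and the order turns without it.

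Acinar-like cells, which make the digestive enzymes, almost never met the rule. In normal pancreas 2 of 1416 did (0.141%, 0.0171 to 0.509). In early KIC 0 of 443 did (exact upper limit 0.829%). The enzymes' own RNA also takes up UMIs of a thinned acinar cell. Over all classes of a library together, 52 secretory and haemoglobin genes held 59.8% of UMIs in normal pancreas and 14.3% in early KIC. Acinar-like cells were 59.3% and 12.6% of the kept cells there, and the value within them is not given. The part of enzyme RNA in the acinar cycling share was not tested.

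Epithelial-like or tumour cells were cycling at similar shares in the early KIC, late KIC and late KPfC libraries and at a higher share in late KPC. The counts were 22 of 356 in early KIC (6.18%, 3.91 to 9.21), 12 of 282 in late KIC (4.26%, 2.22 to 7.32), 28 of 495 in late KPfC (5.66%, 3.79 to 8.07) and 9 of 59 in late KPC (15.3%, 7.22 to 27.0). The late KPC share was 2.70-fold that of late KPfC (1.12 to 5.88). With all UMIs kept the shares were 14.3%, 65.6%, 61.2% and 31.8%, and late KPC then stood below late KPfC. The intervals of the other comparisons included 1, at 0.689 for late against early KIC (0.311 to 1.45) and 0.752 for late KIC against late KPfC (0.348 to 1.53), which does not show that these shares are alike. Different clusters hold this class. In early KIC it was a Spp1 and Cldn3 cluster, with 21 of 349 cells cycling. In late KIC it was mainly a cluster led by Meg3, Krt18 and Hmga2, named from markers of mesenchymal tumour cells, with 12 of 245 cycling, while 0 of 37 cells in the Tff1 and Epcam cluster were cycling there. In late KPfC and late KPC that Tff1 and Epcam cluster held most of the class, with 27 of 447 (6.04%) and 9 of 57 (15.8%, 7.48 to 27.9) cycling. The late KIC share comes from cells with a median of 20823 UMIs, of which thinning kept 1000. In late KIC 7 of 152 cells with only Xist (4.61%) and 2 of 78 with only Y-linked RNA (2.56%) were cycling.

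Fibroblast-like cells were cycling in early KIC and not seen cycling in normal pancreas. In normal pancreas 0 of 397 met the rule (exact upper limit 0.925%), and in early KIC 32 of 1352 did (2.37%, 1.62 to 3.33). With the 0 set to 3 cells the early KIC share was 3.13-fold that of normal pancreas. The exact interval of the ratio begins at 2.40. With all UMIs kept the order turned, at 6.30% in normal pancreas and 3.25% in early KIC, where the median cell had 5139 and 1726 UMIs. The class was made of different clusters in the 2 libraries. In early KIC the share was 4.76% in the Col1a1-led cluster (8 of 168), 3.23% in the Clec3b and Pi16 cluster (15 of 464) and 1.26% in the Gsn and Cxcl14 cluster (9 of 715). The later tumours held few such cells, with 3 of 50 cycling in late KIC, 0 of 23 in late KPfC and 0 of 45 in late KPC. Fibroblasts with mesothelial markers were cycling in 0 of 45, 0 of 36, 3 of 36, 4 of 160 and 3 of 50 cells in normal pancreas, early KIC, late KIC, late KPfC and late KPC.

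Macrophage-like cells were cycling in every tumour library, most often in late KPC. The counts were 1 of 49 in normal pancreas (2.04%), 27 of 763 in early KIC (3.54%, 2.34 to 5.11), 18 of 298 in late KIC (6.04%, 3.62 to 9.38), 71 of 1750 in late KPfC (4.06%, 3.18 to 5.09) and 54 of 480 in late KPC (11.2%, 8.57 to 14.4). The late KPC share was 2.77-fold that of late KPfC (1.91 to 4.01). With all UMIs kept the shares were 18.4%, 6.42%, 40.3%, 33.7% and 22.4%, and late KPC then stood below late KPfC. For late KIC against early KIC the ratio was 1.71 (0.886 to 3.22) and for late KIC against late KPfC 1.49 (0.835 to 2.53). In late KPC nearly all lay in 1 cluster led by Chil3, Arg1 and Il1b, with 53 of 469 cycling (11.3%). The same cluster in late KIC had 7 of 167 (4.19%), and late KIC's Mmp12 and Ccl17 cluster had 10 of 109 (9.17%). In late KIC 4 of 94 macrophage-like cells with only Xist (4.26%) and 7 of 124 with only Y-linked RNA (5.65%) were cycling. In late KPfC the share ran from 1.93% in the Fcgr2b and Ms4a6c cluster (11 of 570) through 4.18% in the Mmp12 and Ccl17 cluster (19 of 455) and 5.02% in the Arg1 and Saa3 cluster (29 of 578) to 8.46% in the Prg4 and Alox15 cluster (11 of 130). Cells with at least 5 members numbered 25 of 1750 in late KPfC and 23 of 480 in late KPC. Neutrophil-like cells, which do not divide once mature, give a level for comparison. They met the rule in 2 of 111 late KPfC cells (1.80%, 0.219 to 6.36, median 3804 UMIs). In late KPC 2 of 38 did (5.26%, 0.644 to 17.7, median 1313 UMIs), and 34 of the 72 kept cells were too shallow. The late KPC interval overlaps that of the macrophage-like cells. With at least 5 members neutrophil-like cells numbered 2 and 0. Doublets were not removed, and their part in these shares was not tested.

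T-like cells had the highest share among the 7 named compartments in early KIC, on few cells. The counts were 11 of 100 in normal pancreas (11.0%), 12 of 26 in early KIC (46.2%, 26.6 to 66.6), 10 of 28 in late KIC (35.7%, 18.6 to 55.9), 2 of 39 in late KPfC (5.13%) and 6 of 35 in late KPC (17.1%), where 55 of 90 cells were too shallow. At 500 UMIs a cell, with all 90 in, the late KPC share was 3.33%. In early KIC 9 of the 12 cycling T-like cells carried Hmgb2. Of all 12, 5 had exactly 3 members and 1 had 5 or more. The mitosis sum of the early KIC T-like cells was 2237 CPM, and 1293 CPM without Hmgb2. Hmgb2 alone made up 53.9% to 57.0% of the mitosis UMIs of T-like cells in normal pancreas, late KPfC and late KPC. B-like cells were cycling in 1 of 128 cells in normal pancreas (0.781%) and 4 of 30 in late KPC (13.3%). At 500 UMIs a cell, with all 67 late KPC B-like cells in, the late KPC share was 2.99%. Endothelial-like cells were numerous only in early KIC, with 3 of 196 cycling (1.53%). Endocrine-like cells, the hormone cells of the islets, gave 0 of 184 in early KIC at a median of 3642 UMIs (exact upper limit 1.98%).

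A compartment outside the 7 named ones held the densest group of cycling cells. A cluster marked by haemoglobin genes and Alas2, the haem synthesis enzyme of red cell precursors, had 25 of 40 cells cycling in late KPfC (62.5%, 45.8 to 77.3) and 15 of 22 in late KPC (68.2%, 45.1 to 86.1). The other haemoglobin cluster had 0 of 65 cycling in late KPfC. Red cell-like cells were cycling in 0 of 48 in late KIC and 0 of 38 in normal pancreas.

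The levels of the members are given next by role, as CPM, the gene's UMIs in every 1000000 UMIs of the class in 1 library. Values for epithelial-like cells are in the order early KIC, late KIC, late KPfC and late KPC, and those for macrophage-like cells add normal pancreas, with 49 cells, in front. The reads come from RNA 3′ ends and are not scaled by length, so levels are compared for 1 gene at a time. In the MCM helicase that licenses origins, Mcm7 stood at 36.1, 31.4, 28.0 and 86.0 CPM in epithelial-like cells and at 9.74, 9.36, 14.7, 10.7 and 46.9 in macrophage-like cells. Mcm4 stood at 14.7, 15.4, 12.7 and 21.5 CPM and at 9.74, 15.4, 35.9, 28.7 and 52.2. Late KPC was highest for both subunits in both classes. Mcm6 stood at 19.2, 21.9, 28.8 and 56.4 CPM and at 4.87, 8.69, 11.4, 10.8 and 27.1.

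Among the genes of nucleotide supply, Rrm2, the regulated subunit of ribonucleotide reductase, stood at 12.4, 30.7, 9.79 and 91.3 CPM in epithelial-like cells and at 4.87, 4.01, 19.6, 17.8 and 50.9 in macrophage-like cells. Tyms, which makes thymidylate, stood at 21.5, 23.9, 19.6 and 53.7 CPM and at 0, 13.4, 17.2, 13.8 and 48.3. Late KPC was again the highest. Pcna stood at 55.3, 68.6, 60.5 and 110 CPM and at 122, 58.8, 85.7, 84.4 and 158. Uhrf1, which keeps DNA methylation through replication, stood at 14.7, 16.1, 7.23 and 18.8 CPM and at 0, 4.68, 3.27, 5.43 and 14.5. Ccne1 and Ccne2, the E cyclins that start S phase, were low, and neither passed 8.06 CPM in these classes.

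Cdk1, the kinase of mitotic entry, stood at 19.2, 36.0, 16.4 and 56.4 CPM in epithelial-like cells and at 0, 10.7, 28.2, 10.8 and 23.1 in macrophage-like cells. Its partner Ccnb2 had another order, at 22.6, 23.5, 33.7 and 8.06 CPM in epithelial-like cells, the last from 3 UMIs. In macrophage-like cells Ccnb2 stood at 4.87, 12.7, 23.7, 15 and 19.8 CPM. Ccna2, the cyclin of S and G2, stood at 3.39, 9.23, 9.34 and 37.6 CPM and at 0, 0.669, 12.7, 7.89 and 20.5. The kinases were sparse. Aurkb, the kinase of the passenger complex, stood at 6.78, 5.93, 3.46 and 8.06 CPM and at 0, 4.68, 9.39, 4.09 and 11.2.

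Birc5 stood at 22.6, 40.0, 24.4 and 40.3 CPM in epithelial-like cells and at 0, 12.7, 51.0, 26 and 41.0 in macrophage-like cells. Ube2c stood at 45.2, 55, 37.2 and 61.8 CPM and at 0, 15.4, 38.8, 22.8 and 35.0. In macrophage-like cells late KIC was thus the highest library for both. Cdc20, the activator of the anaphase-promoting complex, stood at 32.8, 19.6, 20.8 and 18.8 CPM and at 0, 2.67, 18.4, 4.37 and 13.2. Cenpa, the histone that marks centromeres, stood at 32.8, 31.6, 33.9 and 18.8 CPM and at 43.8, 54.2, 42.5, 32.4 and 44.3. Cenpf, a kinetochore protein, stood at 37.3, 13.2, 19.4 and 43.0 CPM and at 4.87, 4.68, 8.98, 5.50 and 18.5. Kif23, a motor of the cleavage furrow, stood at 13.6, 13.1, 28.9 and 26.9 CPM and at 34.1, 2.01, 4.90, 6.27 and 9.92, the first of these from 7 UMIs.

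Hmgb2 stood at 195, 104, 212 and 376 CPM in epithelial-like cells and at 151, 130, 309, 195 and 255 in macrophage-like cells. Top2a stood at 36.1, 33.9, 17.0 and 102 CPM and at 0, 24.7, 32.7, 23.3 and 68.1. Mki67 stood at 15.8, 9.23, 7.23 and 34.9 CPM and at 24.3, 19.4, 34.7, 28.0 and 27.8. Late KPC was thus the highest epithelial-like library for all 3 chromosome genes, but in macrophage-like cells only for Top2a.

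**Figure D3:**
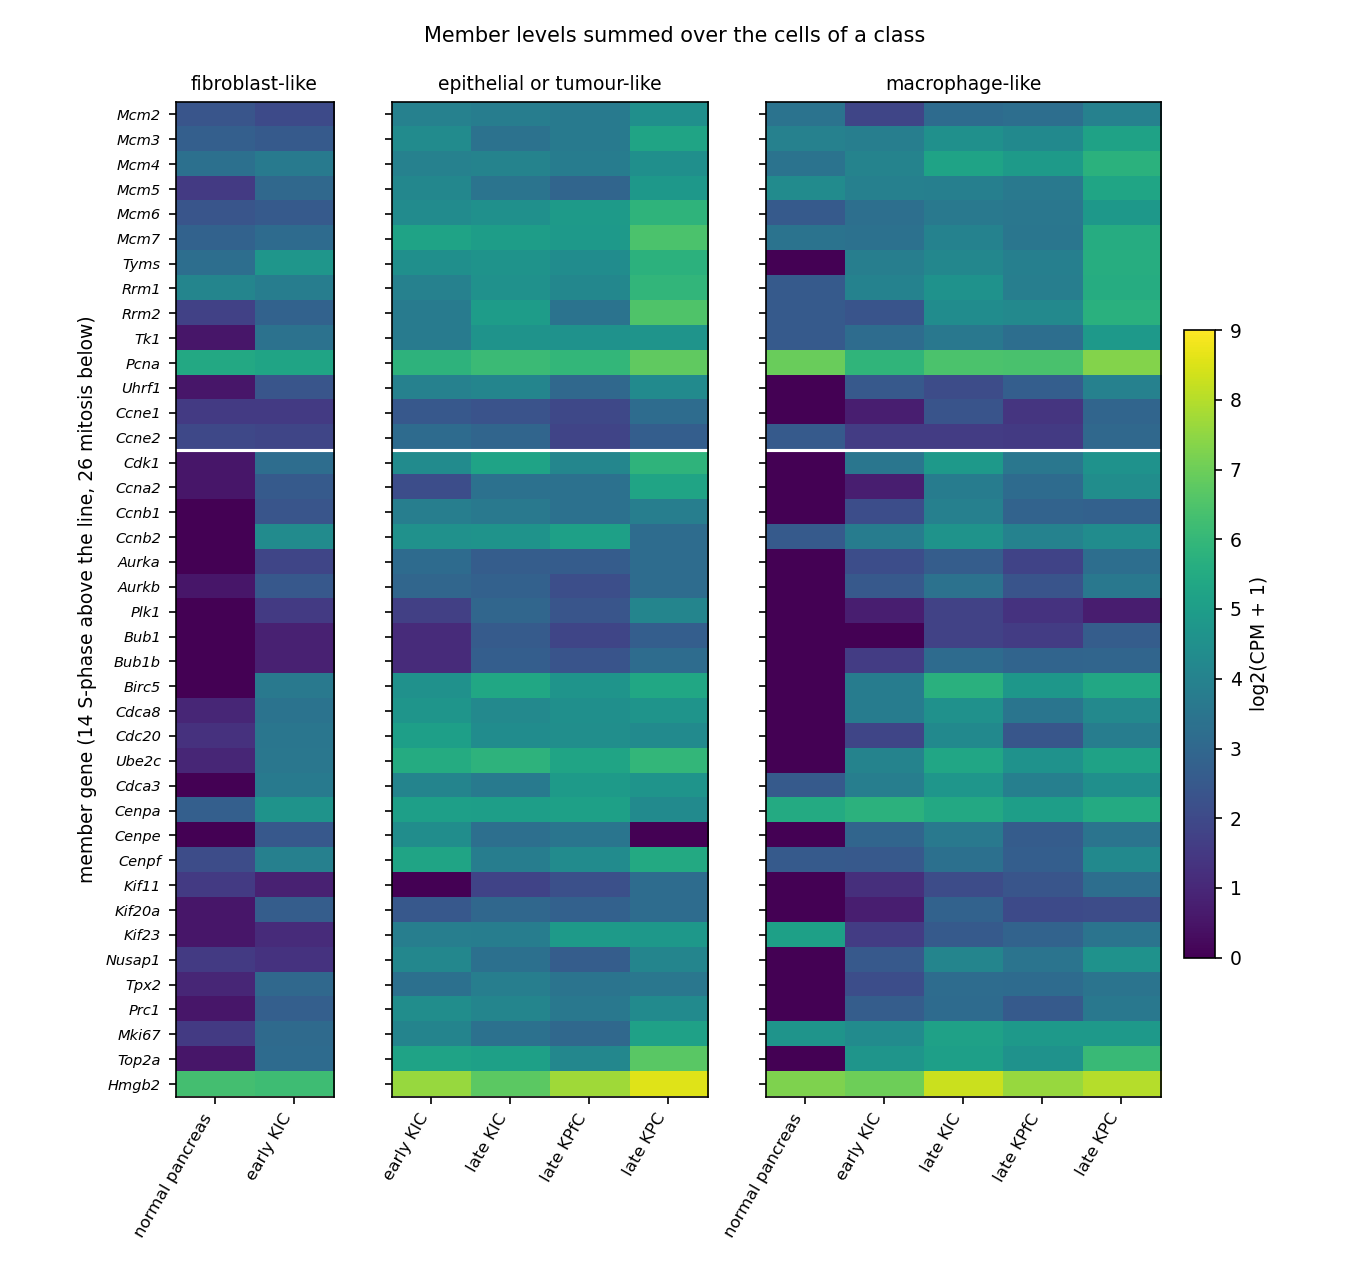
Level of each of the 40 genes (rows) in fibroblast-like, epithelial-like and macrophage-like cells of each library (columns) as log2 of CPM plus 1, on a colour scale from dark (low) to bright (high), with the S-phase genes above the white line. Hmgb2 has the brightest row, and in epithelial-like and macrophage-like cells most S-phase genes are brighter in late KPC than in late KPfC.

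Late KPC against late KPfC compares a tumour with mutant Trp53 with one that lost it, at 6 months against 60 days. Strain differs too, mixed in late KPC and C57BL/6 in late KPfC. So does sex-linked RNA, with only Xist in 737 late KPC cells and only Y-linked RNA in 1734 late KPfC cells. In macrophage-like cells all 40 members reached 20 UMIs over the pair of libraries, and 21 were at least 2-fold higher in late KPC, where 9.8% of all genes were. Only Plk1, with 1 UMI in late KPC, was at least 2-fold lower, against 14% of all genes. By role, 10 of 14 S-phase genes (median log2 ratio 1.61) and 11 of 26 mitosis genes (median 0.73) were at least 2-fold higher. The summed S-phase genes were 2.44-fold higher and the summed mitosis genes 1.57-fold. The median log2 ratio of all genes was 0.01. Mcm7 had the largest ratio, 4.38 (3.26 to 5.85), then Ccne1 with 4.08 (1.73 to 8.91) and Ccne2 with 3.82 (1.71 to 7.96). Mki67 had a ratio of 0.990 (0.703 to 1.36) and Ccnb1 of 0.949. Neutrophil-like cells of the same libraries had ratios of 1.58 for the S-phase sum (1.02 to 2.38) and 1.16 for the mitosis sum (0.907 to 1.48), and T-like cells 0.972 (0.699 to 1.34) and 0.888 (0.679 to 1.16).

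Epithelial-like cells of late KPC were also higher in many members than those of late KPfC, though from 66 cells against 495. Of 39 members with at least 20 UMIs, 8 of 13 S-phase genes and 9 of 26 mitosis genes were at least 2-fold higher, where 13.1% of all genes were. Ccnb2 alone was at least 2-fold lower, against 9.72% of all genes. The summed S-phase genes were 2.56-fold and the summed mitosis genes 1.70-fold higher. Rrm2 was 9.33-fold higher (5.97 to 14.3), Top2a 6.00-fold (4.04 to 8.73) and Mki67 4.83-fold (2.40 to 9.06). Ccnb2 had 3 UMIs against 224, a ratio of 0.239 (0.0489 to 0.707), Cenpa a ratio of 0.555, and Cenpe, a kinetochore motor, had 0 UMIs against 69. The 9 cycling late KPC cells held 66.7% of the S-phase and 76.5% of the mitosis UMIs of their class, so these ratios rest on few cells.

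**Figure D4:**
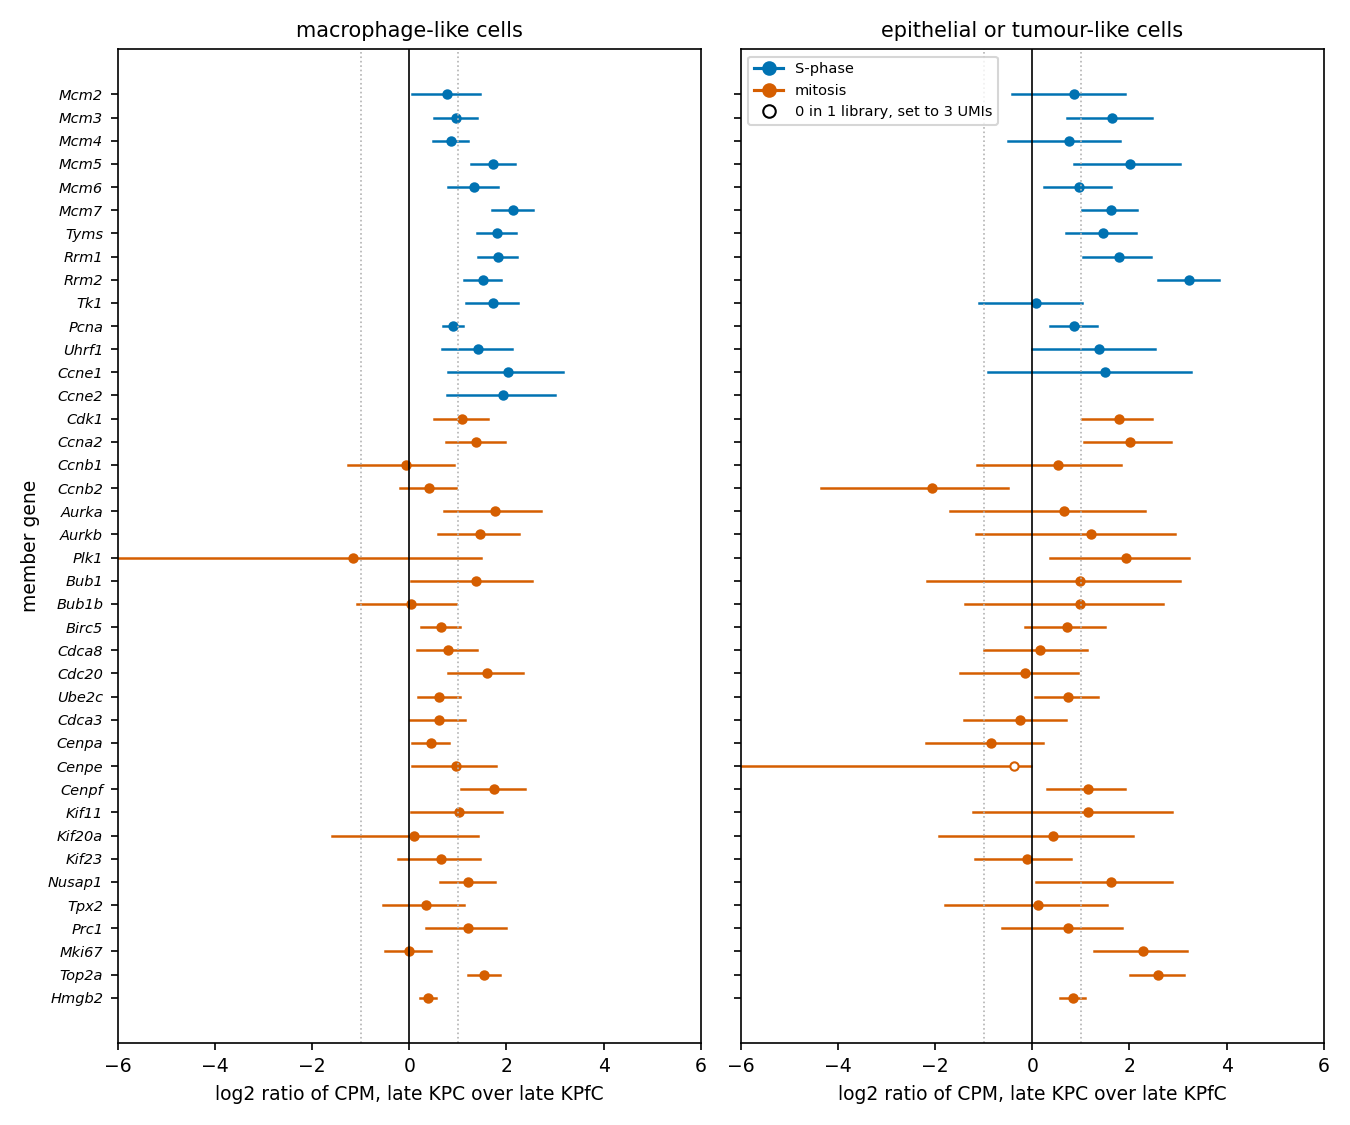
Log2 ratio of CPM in late KPC over late KPfC (x axis) for each member (y axis), in macrophage-like and epithelial-like cells, with exact 95% intervals drawn no further than 6 either way. Blue points are S-phase and orange points mitosis genes, an open point has 0 UMIs in 1 library, and dotted lines mark 2-fold. Mcm7 is the highest macrophage-like point and Rrm2 the highest epithelial-like one.

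Early KIC against normal pancreas asks what differs at the start of disease, and fibroblast-like cells are the class with the most members measured. Of the 23 members whose UMIs in both libraries came to 20 or more, 16 were at least 2-fold higher in early KIC and 0 at least 2-fold lower, where 8.63% and 4.47% of all genes were. A gene near 0 in normal pancreas could reach 20 UMIs through early KIC alone, so these counts are a description. By role, 12 of 13 measured mitosis genes and 4 of 10 measured S-phase genes were higher. Tk1, the thymidine kinase of S phase, had 25 UMIs against 1 (20.03-fold, 3.28 to 822), Cdk1 22 against 1 (17.6-fold) and Top2a 21 against 1 (16.8-fold). Pcna, Rrm1 and Mcm3 had ratios of 0.891 (0.662 to 1.2), 0.825 and 0.868. The S-phase sum was 1.33-fold and the mitosis sum 2.52-fold that of normal pancreas. Hmgb2 stood at 78.3 and 72.5 CPM and made up 77.9% of the mitosis UMIs in normal pancreas but 28.7% in early KIC. Without it the mitosis sum was 8.15-fold higher. In macrophage-like cells, with 49 cells in normal pancreas, 3 of 13 measured members were at least 2-fold higher and 1 lower, near the 16.4% and 6.6% of all genes. In acinar-like cells 2 of 6 measured members were higher and 1 lower, where 56.5% and 1.03% of all genes were.

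Late KIC against early KIC follows 1 model over time. In macrophage-like cells 14 of 31 measured members were at least 2-fold higher in late KIC and 0 lower, against 10.4% and 8.6% of all genes. Mitosis genes were most of these, with 11 of 20 higher against 3 of 11 of S phase, and with sums of 2.13-fold (1.93 to 2.35) and 1.60-fold. Ccna2 had 31 UMIs against 1, Cdc20 a ratio of 6.87 (2.51 to 26.3) and Rrm2 of 4.89 (2.09 to 14). Mcm5 had a ratio of 0.989 and Cenpa of 0.784. The 18 cycling macrophage-like cells of late KIC held 56.7% of the mitosis UMIs of their class. In cells that were not cycling, the S-phase ratio was 1.79 (1.51 to 2.13) and the mitosis ratio 1.76 (1.54 to 2.02). Without Hmgb2 the latter was 1.33 (1.10 to 1.61). The members' own UMIs had sorted these cells from the cycling ones, so these ratios are a description. In epithelial-like cells 5 of 39 measured members were higher and 3 lower, against 13.4% and 27.3%. The S-phase sum stood at 298 CPM in late KIC and 264 in early KIC, and the mitosis sum at 514 and 621, a ratio of 0.828 (0.757 to 0.907). Without Hmgb2 that ratio was 0.963 (0.865 to 1.07). Cenpf had a ratio of 0.354 (0.237 to 0.542), Cenpe of 0.435 and Mcm3 of 0.494, beside a median log2 ratio of all genes of -0.33. In fibroblast-like cells, 50 in late KIC, 12 of 26 measured members were higher and 2 lower, against 6.92% and 18.9%, with Mcm6 at 4.29-fold and Cdk1 at 3.38-fold.

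Late KIC against late KPfC compares models at 60 days. In macrophage-like cells 8 of 40 members were at least 2-fold higher in late KIC and 0 lower, against 6.25% and 10.3% of all genes. Cdc20 was 4.21-fold higher (2.80 to 6.28) and Cdk1 2.60-fold (1.93 to 3.47), and the mitosis sum was 1.63-fold (1.55 to 1.72). In epithelial-like cells 4 of 40 were higher and 3 lower, against 9.49% and 16.1%. Rrm2 was 3.14-fold higher (2.38 to 4.20), Ccne2 2.58-fold and Uhrf1 2.23-fold. Cdca3, an adaptor in the destruction of Wee1, was 2.46-fold lower (1.91 to 3.21) and Hmgb2 2.03-fold lower. The epithelial mitosis sum had a ratio of 0.878 (0.840 to 0.918), which became 1.10 (1.04 to 1.16) without Hmgb2. Each of these comparisons shares a library with another: early KIC, late KIC and late KPfC each stand in 2 of the 4.

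Fibroblasts with mesothelial markers gave few UMIs in normal pancreas and early KIC, where 2 members were measured, both at least 2-fold lower in early KIC (5.72% of all genes were higher and 12.5% lower). In late KIC 13 of 27 measured members were at least 2-fold higher than in late KPfC and 1 lower, against 4.94% and 13.5% of all genes. In late KPC 12 of 26 were higher and 1 lower than in late KPfC, against 5.29% and 20.2%. Mitosis genes were most of both, 11 of 15 in late KIC and 10 of 13 in late KPC, with sums of 716 and 912 CPM against 376 in late KPfC. Few cells carried these sums. Without the cycling cells, 3 in late KIC, 3 in late KPC and 4 in late KPfC, they were 323, 431 and 284 CPM. Late KIC against early KIC had 5 of 11 higher and 0 lower, where 16.3% and 15.4% of all genes were. Late KIC and late KPC held 36 and 50 such cells.

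S-phase genes weighed more against mitosis genes in late KPC than in late KPfC in macrophage-like and epithelial-like cells. In mesothelial-marked fibroblasts the order depended on few cycling cells. The ratio of S-phase to mitosis UMIs in macrophage-like cells was 0.782 in normal pancreas (0.512 to 1.19), 0.483 in early KIC (0.414 to 0.562), 0.363 in late KIC (0.332 to 0.397), 0.512 in late KPfC (0.491 to 0.534) and 0.799 in late KPC (0.730 to 0.874). In epithelial-like cells it was 0.425 in early KIC (0.364 to 0.497), 0.579 in late KIC (0.549 to 0.610), 0.414 in late KPfC (0.391 to 0.439) and 0.624 in late KPC (0.527 to 0.738). The late KIC library was thus the lowest in macrophage-like cells but not in epithelial-like ones. In mesothelial-marked fibroblasts it was 0.431 in late KPC (0.350 to 0.529) and 0.620 in late KPfC (0.554 to 0.693), and in red cell-like cells 0.423 (0.348 to 0.513) and 0.446 (0.403 to 0.494). Fibroblast-like cells had 1.05 in normal pancreas (0.868 to 1.27) and 0.555 in early KIC (0.488 to 0.631). The ratio compares sums of different genes, so a value under 1 does not say that more cells were in mitosis, and without Hmgb2, Mki67 and Top2a the ratio passed 1 in macrophage-like cells of late KPfC and late KPC.

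Cycling macrophage-like cells of late KPC also stood above those of late KPfC in this ratio, while the intervals of late KPfC and early KIC overlapped. Among cycling macrophage-like cells 16 had more S-phase than mitosis genes, 34 fewer and 4 as many in late KPC, and 11, 54 and 6 in late KPfC. Their S-phase to mitosis UMI ratio, with all UMIs, was 0.603 in late KPC (0.530 to 0.685), 0.265 in late KPfC (0.245 to 0.287) and 0.299 in early KIC (0.226 to 0.392). Relative to all their UMIs, cycling late KPC macrophage-like cells held 1.64-fold the S-phase UMIs of late KPfC (1.45 to 1.85) and 0.722-fold the mitosis UMIs (0.662 to 0.786). The cells below the rule held more of both in late KPC, 1.99-fold (1.80 to 2.19) and 1.35-fold (1.22 to 1.49). The members' own UMIs had sorted cycling from other cells, so these levels and intervals only describe the cells so called. The draw of 1000 UMIs also took unequal parts of the cycling macrophage-like cells. Their median was 4041 UMIs in late KPC and 11471 in late KPfC. How far this shaped the ratios was not tested. In epithelial-like cells, those with more S-phase genes numbered 6 of 22 in early KIC, 4 of 12 in late KIC, 2 of 28 in late KPfC and 3 of 9 in late KPC. In early KIC fibroblast-like cells they numbered 5 of 32.

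**Figure D5:**
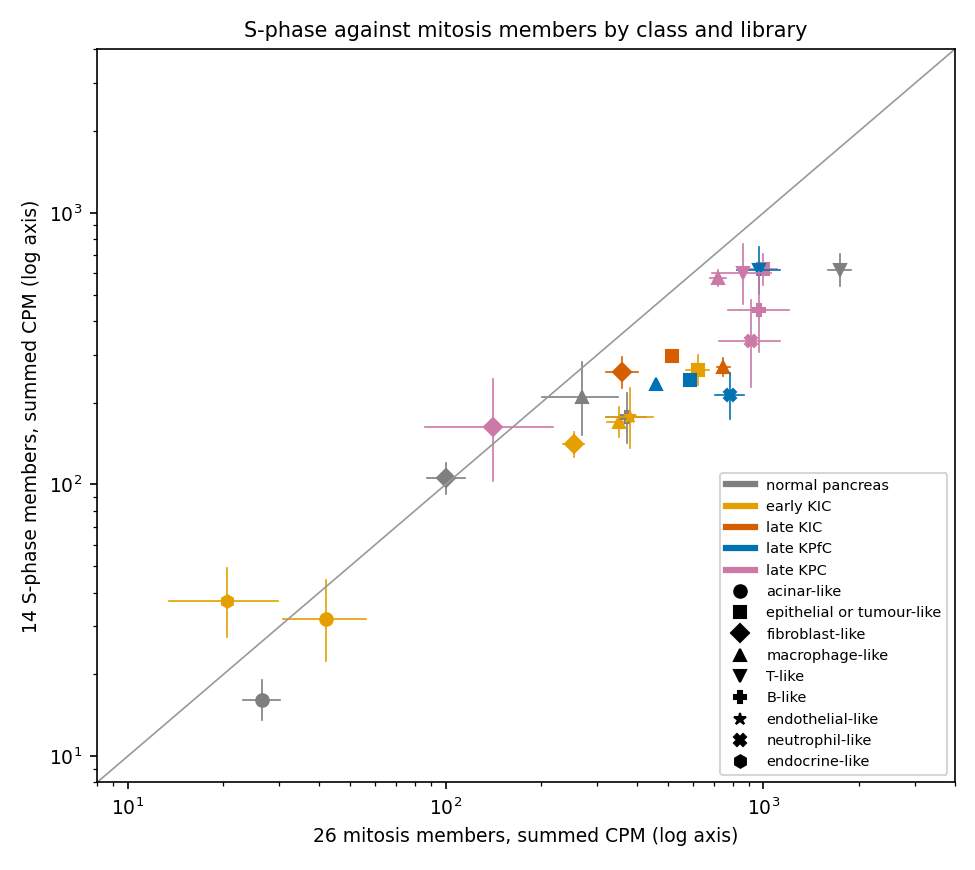
Summed CPM of the 26 mitosis genes (x axis, log scale) and of the 14 S-phase genes (y axis, log scale), 1 point per compartment (shape) and library (colour) with exact 95% intervals and the line of equal sums. The late KPC macrophage-like point lies at 719 mitosis and 575 S-phase CPM, the late KPfC one at 459 and 235.

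The other regulators of the cycle were followed through 43 genes that are not members. In macrophage-like cells of late KPC against late KPfC 6 of 39 measured were at least 2-fold higher and 1 lower, where 9.8% and 14% of all genes were. Among them Cdc45, which activates the MCM helicase, was 4.35-fold higher (2.38 to 7.66) and Cdt1, which loads it, 2.02-fold (1.22 to 3.23). In epithelial-like cells of the same libraries 9 of 37 were higher and 2 lower, against 13.1% and 9.72% of all genes. Cdkn1a, the p21 inhibitor that Trp53 induces, stood at 462 CPM in late KPC and 175 in late KPfC (2.64-fold, 2.24 to 3.10). Cdk4, the kinase of G1, was 2.07-fold higher (1.76 to 2.43). Set against normal pancreas, the fibroblast-like cells of early KIC had 5 of 23 higher and 1 lower, against 8.63% and 4.47% of all genes. Cdk6, the other G1 kinase, stood at 9.45-fold (3.83 to 30.2) and Ccnd1, its cyclin, at 4.49-fold (1.71 to 14.9). Wee1, which holds Cdk1 back, was the 1 lower gene, a share near that of all genes, with a ratio of 0.300 (0.123 to 0.669).

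Cdkn2a, the gene lost in the KIC model, stood at 1.13 CPM (1 UMI), 71.6, 671 and 443 CPM in epithelial-like cells of early KIC, late KIC, late KPfC and late KPC. Which exons its reads covered was not examined, so this does not check the deletion. In epithelial-like cells of late KIC against late KPfC 5 of 39 pathway genes were higher and 4 lower, near the 9.49% and 16.1% of all genes. Ccnd1 stood at 735 and 242 CPM (3.04-fold, 2.88 to 3.22), and E2f1, an activator of S-phase genes, was 4.77-fold higher (3.20 to 7.35). Against early KIC 7 of 36 were higher and 10 lower in late KIC, where 13.4% and 27.3% of all genes were, so the lower count is near that of all genes. Cdkn2b, a G1 inhibitor, stood at 25.0-fold (13.2 to 54.9) and its relative Cdkn2c at a ratio of 0.1001 (0.0503 to 0.197). Macrophage-like cells of late against early KIC had 2 of 23 higher and 1 lower, no larger a share than the 10.4% and 8.6% of all genes, with Gmnn, the inhibitor of Cdt1, at 3.89-fold (1.83 to 9.50).

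Within a class and library, cycling cells could be set against the others for genes that did not choose them. In macrophage-like cells of late KPfC Foxm1, a driver of mitosis genes, was 30.1-fold higher in cycling cells (13 to 73.6). Cdkn1a was lower in cycling epithelial-like cells of late KPfC, at 57.0 against 184 CPM (0.310, 0.205 to 0.450), but not in those of early KIC, at 301 against 269 CPM (1.12, 0.680 to 1.76), and the difference between the libraries was not tested. Ccnd1 was 2.12-fold higher in the cycling cells of late KPfC (1.83 to 2.43) and had a ratio of 0.779 in those of early KIC (0.520 to 1.13). Cdkn2d, another G1 inhibitor, was at least 2-fold higher in cycling cells in 7 of 7 units, a unit being a class in 1 library with at least 20 cycling cells.

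The genes most like the members were those with the largest median log2 ratio of CPM in cycling against other cells over the 7 units, of 783 non-member genes with enough UMIs. First came 2810417H13Rik, with 4.81, then Stmn1, which destabilises microtubules, with 3.99, and Smc2, a condensin subunit, with 3.69. Next were Tmpo with 3.06, Smc4, the other condensin core subunit, with 2.65, H2afx, a histone variant, with 2.64, and Ccdc34 with 2.63. Lig1, the ligase of replication, and Dut, which clears dUTP, each had 2.52. H2afv followed with 2.49, Tuba1b, a tubulin, with 2.33, Cks1b with 2.25, Cdkn2d with 2.20, Cks2 with 2.02 and Tubb5 with 1.99. Stmn1, Smc2 and Smc4 were at least 2-fold higher in 7 of 7 units, and H2afv in 5. These genes were ranked on the cells that the members had chosen, so the list is a description.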

How the data were processed

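The data were gene counts from 10x Genomics 3′ single-cell libraries (kit v2, per the labels' protocols), 1 library for each of 5 groups. The deposited values were counts of UMIs per gene and cell, made with Cell Ranger 2.1.1 on GRCm38 per the submitters' processing notes. Cells with at least 200 genes, 500 UMIs and at most 20% mitochondrial UMIs were kept, 10718 in all. The total was 3488871 to 26749820 UMIs per library. Doublets were not removed.

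Counts were scaled to 10000 per cell, and 2000 variable genes, without 175 cell cycle genes, gave 30 principal components and 31 Leiden clusters (scanpy 1.11.5, resolution 1). Clusters were named from 158 listed markers, of which 5 (Trac, Trbc2, Ighm, Ighd and Igkc) were not in the tables. The naming rule was revised after the clusters were seen, and 279 cells in 3 clusters stayed unnamed. Each cell was then thinned to 1000 UMIs for the cycling rule.

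Classes were compared where both libraries had at least 30 cells. Levels (CPM) were summed UMIs scaled to 1000000 per class and library. A gene entered with at least 20 UMIs over both libraries and was counted as higher or lower from a 2-fold ratio, with a 0 set to 3 counts. Intervals are exact (Clopper-Pearson or conditional binomial, 95%) and treat UMIs as independent although they come from few cells. With 1 library per group no p-value was computed. The members and lists were chosen with earlier results of these data known. Named members were, per role, up to 3 with the most UMIs, and per comparison the 3 largest and 3 smallest ratios. The scripts were tested on simulated data. Other depths, rules, filters and clusterings were tried. Part of the genotype of the tumour models is not reported here.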

Additional observations from a re-analysis of the deposited data

Results flagged for a closer look

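Summed levels that were higher in 1 compartment and lower in another of the same pair of libraries, each with an interval that left out 1, were looked for in acinar-like, epithelial-like, fibroblast-like, mesothelial-marked and macrophage-like cells. They were found for 7 pairs of compartments, and the differences between compartments were not tested. For late KIC against early KIC the mitosis ratio was 0.828 in epithelial-like cells (0.757 to 0.907). It was 1.42 in fibroblast-like cells (1.24 to 1.63), 2.83 in mesothelial-marked fibroblasts (1.92 to 4.35) and 2.13 in macrophage-like cells (1.93 to 2.35), log2 differences of 0.78, 1.77 and 1.36 from the epithelial-like cells. For late KIC against late KPfC it was 0.878 in epithelial-like cells (0.840 to 0.918). It was 1.90 in mesothelial-marked fibroblasts (1.68 to 2.15) and 1.63 in macrophage-like cells (1.55 to 1.72), log2 differences of 1.11 and 0.89. Without Hmgb2 the epithelial-like ratios were 0.963 (0.865 to 1.07) and 1.10 (1.04 to 1.16). The interval of the former includes 1, and that of the latter lies above 1. With Hmgb2 the epithelial-like mitosis sums had log2 ratios of -0.27 against early KIC and -0.19 against late KPfC. The medians of all genes there were -0.33 and -0.12. Different clusters hold the epithelial-like class in these libraries. The mesothelial-marked mitosis ratios rest largely on 3 cycling late KIC cells. Outside cycling cells that sum was 323 CPM in late KIC, 253 in early KIC and 284 in late KPfC. For early KIC against normal pancreas the S-phase ratio was 0.391 in mesothelial-marked fibroblasts (0.136 to 0.927), from 6 UMIs against 41. It was 1.99 in acinar-like cells (1.33 to 2.90) and 1.33 in fibroblast-like cells (1.12 to 1.58), log2 differences of 2.34 and 1.77. In acinar-like cells the S-phase sum had a log2 ratio of 0.99, below the median of 1.13 for all genes. The median of all genes was 0.02 in fibroblast-like cells and -0.07 in mesothelial-marked fibroblasts.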

How the results depend on the processing

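Of 211 values of the main results under alternatives, 193 stayed within the counting interval of the reported value. The cycling percents and the S-phase to mitosis ratios are not among these. Of 913 further values, which hold them, 656 stayed, 241 moved and 16 changed sign. For the S-phase to mitosis ratio, 28 moved and 3 stayed without Ccne1, Ccne2 and Pcna. After thinning 15 of these ratios moved, 15 stayed and 1 changed sign. Values here are log2 ratios. Without thinning 3 ratios of cycling shares turned. Early KIC against normal pancreas in fibroblast-like cells went from 1.65, with the 0 set to 3 cells, to -0.95. Late KPC against late KPfC went from 1.43 to -0.94 in epithelial-like cells and from 1.47 to -0.59 in macrophage-like cells. Late against early KIC then came to 2.20 in epithelial-like, 3.62 in fibroblast-like and 2.65 in macrophage-like cells. In fibroblast-like cells 0 of 397 in normal pancreas were cycling under most alternatives, and the 0 was again set to 3 cells. The early KIC ratio was then 0.65 at 500 UMIs a cell and 0.23 with secretory and haemoglobin genes also left out. With at least 5 members it was 1.04. These values are not exact bounds. In red cell-like cells late KIC had 0 of 48, and with that 0 set to 3 cells its ratio to late KPfC was -1.46 at 500 UMIs. With at least 5 members, macrophage-like cells of late against early KIC came to -0.23. In 7 cases a share of 0 from few cells allowed no ratio, 5 of them for macrophage-like cells, where normal pancreas (0 of 49 cells) is set against early KIC, and 2 in fibroblast-like cells of late KIC (0 of 50) against early KIC. The cause of these shifts was not tested.

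For the summed members, thinning gave 0.52 in macrophage-like cells of late against early KIC and 0.32 against late KPfC. Clustering the libraries separately gave -0.72 for early KIC against normal pancreas in macrophage-like cells, 0.91 for fibroblast-like cells of late against early KIC, 0.55 for mesothelial-marked fibroblasts of late KIC against late KPfC, and -1.99 and 0.13 for red cell-like cells of late KIC and late KPC against late KPfC. The mitosis sum without Hmgb2, chosen after seeing the data, came to 0.13 in epithelial-like cells of late KIC against late KPfC, from -0.19.

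Without Hmgb2, Mki67 and Top2a, the log2 ratio of S-phase to mitosis UMIs changed sign in 14 cases and moved in 17 others. The 14 are given here. It came to 0.37 in epithelial-like cells of late KPC, 0.033 in fibroblast-like cells of late KIC (0.32 after thinning), 0.29 in mesothelial-marked fibroblasts of late KPfC, and 0.14 and 0.64 in macrophage-like cells of late KPfC and late KPC. It came to 0.16 and 0.22 in dendritic-like cells of normal pancreas and late KIC, 0.13, 0.96 and 0.91 in T-like cells of normal pancreas, late KPfC and late KPC, 0.55 and 0.17 in B-like cells of normal pancreas and late KPC, and 0.19 and 0.49 in neutrophil-like cells of late KPfC and late KPC. No paired analysis was possible because each group has 1 library. No library could be left out of a group for the same reason.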
